A study of Mus musculus with 2 samples.

Results

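Pi16-negative mesenchymal cells of the arthritic temporomandibular joint (TMJ) were chosen by their transcripts. A member carried at least 20 unique molecular identifiers (UMIs, each a counted transcript) of Dcn, Lum and Col3a1 together and at least 1 UMI of Pdgfra. It carried no UMI of the leukocyte gene Ptprc, of the endothelial gene Pecam1 or of Pi16 and Dpp4, and at most 4 UMIs of the skeletal genes Col2a1, Acan, Ibsp and Bglap together. Of the 10109 barcodes that had 500 or more genes and a mitochondrial share below 10%, 234 met this rule, 142 of 4352 in the WT library and 92 of 5757 in the mutant library.

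The study asked how a lymphatic defect changes the TMJ in arthritis, and its single-cell data are 1 WT library and 1 library of Prox1 mutants (Prox1+/-, heterozygous for a transcription factor of lymphatic endothelium). Both groups were C57BL/6 mice of 8 to 10 weeks by the labels, female by the study's account of these samples, and both received complete Freund's adjuvant (CFA), which inflames the joint, by injection into the TMJ. Libraries of untreated joints were not analysed here. Each library is a single measurement, the number of mice behind it is not given in the sources used here, and no p-value was computed.

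Intervals are 95% intervals of counting error, and they hold no difference between animals. The libraries held 5709 barcodes with 53517206 UMIs in WT and 7846 barcodes with 62446987 UMIs in the mutant. WT members had a median of 12792.5 UMIs and 3934.5 genes, and mutant members had 16999.5 UMIs and 4759.5 genes. The median mitochondrial share of members was 2.66% in WT and 2.36% in the mutant. The libraries shared 10 barcodes and none of them was a member in both. Prox1 itself was almost absent from members, with 4 UMIs in WT and 3 in the mutant, and over all kept cells its level was 11.6 CPM (counts scaled to a total of 1000000 UMIs) in WT against 5.80 CPM in the mutant. Endothelial cells, which include its lymphatic source, were 989 of the kept WT cells and 484 of the kept mutant cells, so the allele and the cell content cannot be told apart in this level.

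Fibroblasts of a joint build and remodel its connective tissue. Those at the joint surface secrete lubricin and hyaluronan, those in ligament and tendon lay down ordered collagen, those on bone and cartilage surfaces can enter the skeletal lineages, and many respond to inflammation with chemokines, complement and matrix-degrading enzymes. Pi16 and Dpp4 mark a fibroblast state found around vessels and in fascia of many organs, so their absence defines what remains rather than a lineage.

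The markers that chose the cells were present as the rule requires, and these values are a description. Decorin (Dcn) ranged from 0 to 563 UMIs in WT members with a median of 66, and from 0 to 765 with a median of 61.5 in mutant members. Col3a1 had medians of 43 and 70.5 UMIs, and Pdgfra, the platelet-derived growth factor receptor of fibroblasts, had medians of 3 and 4. Lumican was detected in 84.5% of WT and 81.5% of mutant members.

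Most cells near a threshold were divided by low counts. The Pdgfra minimum separated 34 WT members with exactly 1 UMI from 97 WT cells that met every other term with none, and 21 mutant members from 37 such mutant cells. The Pi16 and Dpp4 limit set aside 27 WT and 18 mutant cells with 1 UMI of those genes. The skeletal limit had 16 WT and 8 mutant members at 3 or 4 UMIs, beside 10 and 6 cells at 5 or 6. The Ptprc limit left out 9 WT and 22 mutant cells with 1 UMI, the Pecam1 limit 7 and 6. At the matrix minimum, 1 WT and 6 mutant members had 20 to 24 UMIs, and 5 WT and 8 mutant cells had 15 to 19.

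Members made up 3.26% of kept WT cells (2.76 to 3.83) and 1.60% of kept mutant cells (1.29 to 1.96). The difference, mutant minus WT, was -1.66 percentage points (-2.31 to -1.06). Among cells with at least 20 UMIs of Dcn, Lum and Col3a1, members were 22.2% of 639 WT cells and 21.4% of 430 mutant cells, so the share within the matrix-rich cells was close in both libraries while those cells were fewer of all kept cells in the mutant. Cells with at least 4000 UMIs were also thinned to 4000 UMIs each before the rule was applied, and cells with fewer were left out of the share. The shares were then 3.79% and 2.92%, and the difference of -0.87 points had an interval from -1.78 to 0.03. Both the depth and the set of cells differ from the main share, so the change cannot be read as an effect of depth alone. Depth, cell recovery and tissue composition cannot be told apart in 1 library per group.

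**Figure D1:**
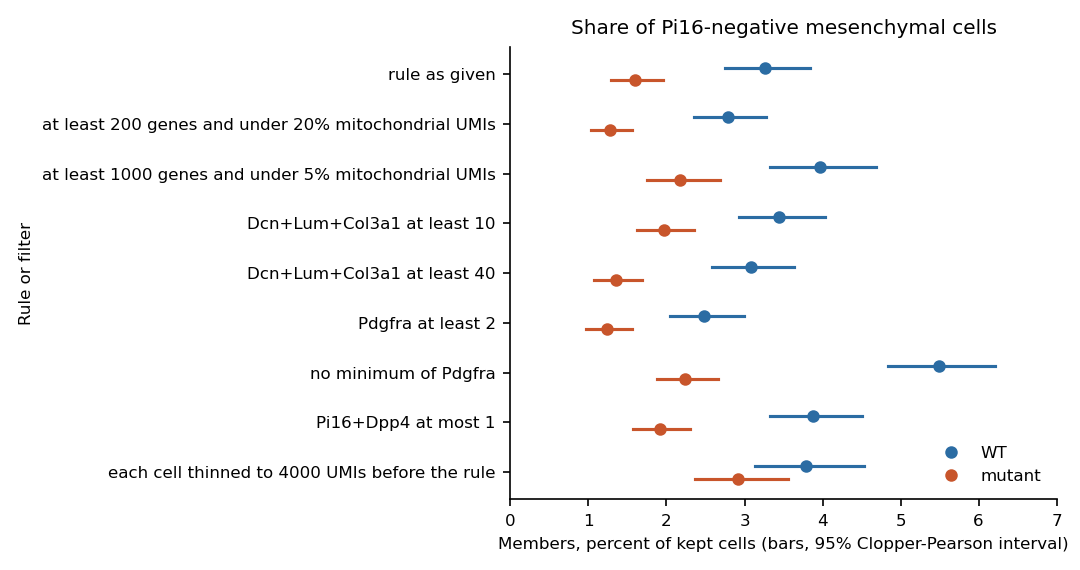
Share of members among kept cells, in percent, under the rule as given and under other filters, with WT in blue and the mutant in orange. Points are shares and bars are 95% Clopper-Pearson intervals. The WT share lies above the mutant share under every rule drawn, and the intervals overlap only after thinning to 4000 UMIs, which leaves out cells with fewer.

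The members fell into 6 clusters when grouped by their variable genes without the genes of the rule. The leading genes and list counts below describe the clusters, which were built from them, and are not tests. A gene was raised in a cluster if it was at least 2-fold over the other members and had a UMI in at least 10% of the cluster's cells. Of all genes with a UMI in that many cells, 4.44% were raised in cluster 1, 5.87% in cluster 2, 3.54% in cluster 3, 2.97% in cluster 4, 17.1% in cluster 5 and 5.62% in cluster 6. Both libraries contributed to each cluster.

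Cluster 1 held 44 WT and 23 mutant cells and was led by fold by Pdzrn4, at 940 against 5.44 CPM in the other members. Among its 10 leading genes was Runx2, the master transcription factor of the bone lineage, at 1620 against 111 CPM. Tenascin-N (Tnn), a matrix protein of periosteum and dentin, stood at 1158 against 48.4 CPM, and the hindlimb and jaw patterning factor Pitx1 at 132 against 6.72 CPM. Of the 12 genes of the bone-lineage list, 4 were raised at least 2-fold (Runx2, Alpl, Pth1r and Mmp13), and of 11 small leucine-rich proteoglycans, which organize collagen fibrils, 6 were raised, among them Omd, Aspn and Fmod. Members of the tendon, myofibroblast and bone-lineage lists were raised together, so the cluster is given no cell type name. Tnfsf11, which encodes the osteoclast-inducing ligand RANKL, was at 135 CPM here and at 41.7 CPM or less in every other cluster, and 35 of its 52 mutant UMIs were in 1 cell.

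Cluster 2 held 33 WT and 26 mutant cells. The alarmin Il33 was at 282 CPM against 5.41 CPM elsewhere, apolipoprotein D (Apod) at 2540 against 137 CPM, and the eosinophil chemokine Ccl11 at 148 against 4.78 CPM. Of 30 inflammatory genes 15 were raised, among them Cxcl13 and Ccl19, which attract lymphocytes, and of 13 complement genes 6 were raised, with C3 at 3189 CPM. Genes of the Col15a1 adventitial and marrow-stroma lists were raised beside them, 5 of 9 and 5 of 10, and 4 of 14 of the Pi16 adventitial list. Schwann cell genes summed to 333 CPM against 20.7 CPM in the other members, with Mbp and Prx raised. That sum was 776 CPM in WT and 31.5 CPM in mutant cells, and 1 WT cell with 148 UMIs of these genes held most of the WT sum. Macrophage genes summed to 469.5 against 156 CPM and adipocyte genes to 150 against 26.4 CPM. The cluster is unnamed.

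Cluster 3 held 21 WT and 14 mutant cells with median depths of 23997 and 14463.5 UMIs. Among its leading genes were the neutrophil chemokine Cxcl5 at 1044 against 16.5 CPM and haptoglobin (Hp) at 2185 against 253 CPM. Igkc, an antibody light chain, headed it by fold, yet 9 of the 35 cells carried a UMI of it and 1 mutant cell held 767 of them. Inflammatory genes were raised in 10 of 30 cases, including Saa3, Cxcl1, Cxcl2 and Il6, and matrix enzymes in 6 of 15, including Mmp3, Mmp13 and the aggrecanase Adamts4. The cluster is unnamed. It was not alike in the libraries. Saa3, an acute-phase protein, was at 6011 CPM in its WT cells and 196 CPM in its mutant cells, while in the mutant Saa3 was at 2098 CPM in cluster 2 and 1956 CPM in cluster 6. All of these levels rest on few cells. In cluster 3, 4 of 21 WT cells held 2950 of 3195 UMIs and 1 of 14 mutant cells held 45 of 51, and without them the levels were 598 and 23.8 CPM. In the mutant, 3 of 26 cells held 916 of 933 UMIs in cluster 2 and 1 of 9 held 636 of 658 in cluster 6, which was at 72.1 CPM without it. Haemoglobin genes summed to 53405 CPM in the mutant cells of cluster 3 and 286 CPM in its WT cells, and neutrophil genes to 1755 and 115 CPM. Cluster 1 had a like haemoglobin difference, with 289 CPM in WT and 42128 CPM in mutant cells. Cluster 4 had the opposite, with 17134 and 508 CPM, but its WT level rests on 1 cell. A single WT member held 5160 haemoglobin UMIs, and without it the WT members together were at 264 CPM. The mutant cell with 13242 haemoglobin UMIs lay in cluster 1 or 3, as mutant cells of the other clusters were at 553 CPM or less. It held most of the mutant haemoglobin UMIs of its cluster, so the mutant level of cluster 1 or of cluster 3 rests on 1 cell as well. The part of haemoglobin and neutrophil transcripts in the differences within these clusters was not tested.

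Cluster 4 held 19 WT and 12 mutant cells and was tendon- and ligament-like in part of the listed genes. Cartilage oligomeric matrix protein (Comp) stood at 2679 against 166 CPM, and scleraxis (Scx), the tendon transcription factor, at 138 against 18.0 CPM. Cilp, Thbs4 and Fmod completed 5 raised of 12 listed genes. Tenomodulin (Tnmd), a late tendon marker, was not raised, at 16.1 CPM, and neither were Mkx, Kera, Cilp2, Chad, Angptl7 and Thbs2. The unnamed cluster 1 had 4 of the same 12 raised (Chad, Cilp2, Fmod and Mkx). The list summed to 6434 CPM in cluster 4 and 3810 CPM in cluster 1.

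Cluster 5 held 21 WT and 8 mutant cells, and its leading genes were rare in the other members. Dok6 was at 2778 CPM and in every cell, against 9.98 CPM elsewhere, and Col25a1, a membrane collagen, at 1373 against 3.02 CPM. Rspo4, a Wnt agonist, was in all 29 cells. Of 32 cranial patterning factors 15 were raised, with Msx2 at 178 CPM and Dlx4 at 116 CPM, and 6 of 15 genes of the BMP pathway, including Bmp2 at 395 CPM and its target Id1 at 511 CPM. Of 10 cartilage genes 5, Sox9 among them, and the bone factor Sp7 were raised as well. No list of a mesenchymal kind gave the cluster a name.

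Cluster 6 held 4 WT and 9 mutant cells and was lining-like. Of the 10 genes of the lining list 9 were raised, and 7 of them were among its 10 leading genes. Lubricin (Prg4) was at 29510 CPM against 1508 CPM in the other members, and the hyaluronan synthase Has1 at 1120 CPM. F13a1, a coagulation factor subunit also made by macrophages, was its leading gene. Of 15 interferon-response genes 8 were raised, none among the 10 leading genes, and no macrophage gene was raised. Of 14 genes of the Pi16 adventitial list 7 were raised, Sema3c, Pcolce2 and Cd248 among them, and none was a leading gene. Of 6 mural genes, which mark pericytes and smooth muscle, Rgs5 was raised and was among the 10 leading genes, at 249.6 against 8.42 CPM, and the mural genes summed to 256 CPM against 90.0 CPM in the other members. Macrophage markers summed to 80.9 CPM in it, less than in each of the other clusters, which ran from 114 to 469.5 CPM.

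**Figure D2:**
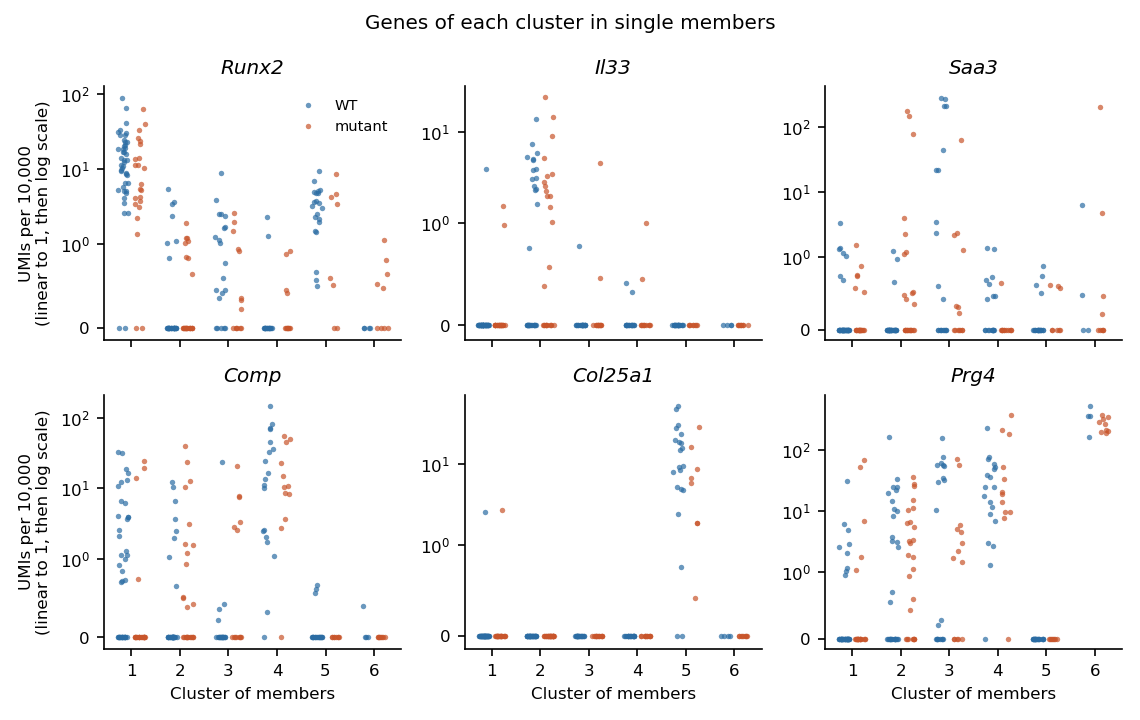
UMIs per 10,000 of 6 genes in single members by cluster, on an axis linear up to 1 and logarithmic above, with WT cells in blue and mutant cells in orange. Each point is a cell. Prg4 is present in all 13 cells of cluster 6, Col25a1 in 27 of 29 cells of cluster 5, and the highest Saa3 values belong to a few cells of clusters 2, 3 and 6.

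Cluster 3 held the neutrophil chemokines and Il6 among its raised genes, and the stretches upstream of the start sites are shown for the 3 genes whose window held a kappaB motif, the letters that NF-kappaB factors bind. Of the 10 inflammatory genes raised in cluster 3, 6 had an entry in the RefSeq promoter table (GRCm38.p6). The motif searched was GGG, then any 3 bases, then TTCC, on both strands in the 250 bases before the start, and overlapping matches were counted separately. It was present in 3 of the 6 windows and in 4.65% of all 32851 windows of the table. The other motif searched, the AP-1 letters TGANTCA, was in 2 of the 6, Il6 and Tnfaip6, and in 6.75% of all windows. Capitals mark kappaB matches. Cxcl1 is shown at chr5:90890995-90891244, Cxcl2 at chr5:90903649-90903898 and Il6 at chr5:30012864-30013113, each on the plus strand and each ending just before the start used in that table. GENCODE vM21 places the starts of Cxcl1 and Cxcl2 inside these windows, at 90891241 and 90903871.
Cxcl1: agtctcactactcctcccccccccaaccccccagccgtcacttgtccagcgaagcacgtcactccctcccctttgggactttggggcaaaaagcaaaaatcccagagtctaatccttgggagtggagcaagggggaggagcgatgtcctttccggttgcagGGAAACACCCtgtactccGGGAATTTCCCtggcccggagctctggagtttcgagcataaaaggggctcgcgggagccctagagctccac
Cxcl2: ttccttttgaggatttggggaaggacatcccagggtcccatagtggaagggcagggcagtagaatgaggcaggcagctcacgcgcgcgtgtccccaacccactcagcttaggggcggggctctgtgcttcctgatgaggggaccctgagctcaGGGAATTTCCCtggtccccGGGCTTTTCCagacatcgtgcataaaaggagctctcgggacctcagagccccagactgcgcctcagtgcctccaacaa
Il6: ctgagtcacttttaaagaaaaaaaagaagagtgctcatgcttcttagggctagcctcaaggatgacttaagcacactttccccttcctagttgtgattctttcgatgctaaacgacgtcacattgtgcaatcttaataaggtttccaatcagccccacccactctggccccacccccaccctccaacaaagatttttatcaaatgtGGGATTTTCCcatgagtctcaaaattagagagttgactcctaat
Cxcl1 and Cxcl2 each held 3 matches, of which 2 overlap, and Il6 held 1. A match is a description of the letters and does not show binding. In members, Cxcl1 was at 255 CPM in WT against 325 CPM in the mutant, Cxcl2 at 56.1 and 42.6 CPM, and Il6 at 63.3 and 88.5 CPM, all within 2-fold between the libraries.

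The comparison of the libraries asked which genes of these cells differed between the mutant and WT. A gene was tested if it had at least 100 UMIs over all members, and called if summed CPM differed at least 2-fold. Of 6252 genes tested, 148 were higher in the mutant (2.37%) and 151 were lower (2.42%), and the median gene was at a log2 of -0.02. The remaining 95.2% lay within 2-fold. With the single cell that held most UMIs of each gene removed, 83 of the higher and 104 of the lower genes kept their call. A mixed member is here one with 5 or more UMIs of another cell type's listed genes, mural genes and the macrophage gene Cd74 included and haemoglobin and neutrophil genes aside. Without the 31 WT and 35 mutant mixed members, 131 of the 206 calls that could still be tested were kept. In the 194 WT and 79 mutant cells that met the same rule but carried Pi16 or Dpp4, 99 genes were higher and 65 lower of 6425 tested. These cells come from the same libraries.

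Several matrix-degrading enzymes and contractile genes were lower in the mutant members. Mmp13, the collagenase that cleaves fibrillar collagen of cartilage, had 1732 UMIs in 36 WT members and 134 UMIs in 9 mutant members. The levels were 824 CPM (786 to 864) for WT and 75.03 CPM (62.9 to 88.9) for mutant members, and the log2 ratio was -3.46 (-3.72 to -3.20). A single WT cell held 525 of the UMIs, and without the top cell the ratio was -2.94. By cluster, Mmp13 was at 1198 CPM in WT and 420 CPM in mutant cells of cluster 1, and at 2239 CPM in WT cells of cluster 3 with no UMI in its mutant cells. In the Pi16- or Dpp4-carrying cells it was also lower, 13.6 CPM in WT against 1.31 CPM in the mutant.

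Mmp3, the stromelysin, stood at 367 CPM in WT against 130 CPM in the mutant (log2 -1.50, -1.72 to -1.29), but its ratio was -0.39 without the top cell and -0.29 without mixed members. Adamts4 stood at 59.0 and 8.96 CPM (log2 -2.72, -3.57 to -1.96). These were the 3 lower genes of 13 matrix enzymes tested, with none higher and a median of -0.38. Timp1, an inhibitor of such enzymes, was lower as well, at 634 CPM in WT against 243 CPM in the mutant (log2 -1.38, -1.54 to -1.23), and was detected in 67 of 142 WT and 59 of 92 mutant members. The median member had 0 UMIs per 10,000 in WT and 0.77 in the mutant. The 6 highest WT members held 774 of 1332 UMIs and the 6 highest mutant members 232 of 434, and without the top cell, a WT cell with 183 UMIs, the ratio was -1.17. Mmp2, Mmp14 and Ctsk had ratios of -0.27, -0.58 and -0.48 and were not called.

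Of 10 myofibroblast genes tested, 4 were lower and none higher, with a median of -0.74. Smooth muscle actin (Acta2) stood at 100 CPM in WT against 28.0 CPM in the mutant (log2 -1.84, -2.32 to -1.39), and transgelin (Tagln) at 79.9 and 14.6 CPM (log2 -2.46, -3.11 to -1.86). Of the Tagln UMIs in WT, 151 of 168 lay in cluster 3. Tropomyosin 2 (Tpm2) and the latent TGF-beta binding protein Ltbp2 were the other lower genes, at log2 -1.25 and -1.78. Mural markers, which would accompany pericytes or smooth muscle, summed to 85.6 CPM in WT against 137 CPM in the mutant, with Rgs5 the most abundant in the mutant, where 94 of its 95 UMIs lay in cluster 6. In cluster 3 they summed to 162 CPM in WT cells and 115 CPM in mutant cells, and Des and Notch3 were raised there. Without mixed members of every type the myofibroblast median was -0.38 over 8 genes, and Acta2, Tpm2 and Ltbp2 were within 2-fold at -0.82, -0.62 and -0.94. Tagln, with 68 WT and 8 mutant UMIs left and so under the count minimum, was at -2.56. The part of mural transcripts alone was not tested.

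Skeletal genes were lower where they differed. Osteopontin (Spp1) stood at 418 CPM in WT against 117 CPM in the mutant (log2 -1.84, -2.06 to -1.62), and with Mmp13 it made 2 lower of 9 bone-lineage genes, median -0.58. Runx2, at 482 and 321 CPM, was within 2-fold. Of 5 cartilage genes tested, the matrix genes Col9a2 (99.4 and 23.0 CPM) and Hapln1 (79.0 and 14.6 CPM) were lower, and the median was -0.87. Both are raised in cluster 5, which gave 19.4% of WT and 9.62% of mutant member UMIs. The 8 fibrillar collagens were all within 2-fold, with Col1a1 at 5703 and 3982 CPM (log2 -0.52, -0.56 to -0.48).

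Fibromodulin (Fmod), a small proteoglycan of tendon and cartilage, was in 78 WT members at 841 CPM and in 31 mutant members at 345 CPM (log2 -1.29, -1.42 to -1.15). With osteomodulin (Omd) it made 2 lower of 8 small proteoglycans, and with Cilp2 and Angptl7 it made 3 lower of 10 tendon and ligament genes, with none higher in either list. Without mixed members Fmod, Omd and Cilp2 were within 2-fold, at -0.95, -0.71 and -0.94. The tendon factor Scx, at 29.5 and 42.0 CPM, was within 2-fold.

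Several of the strongest decreases came from genes of 1 cluster. Gpc5, a cell-surface heparan sulfate proteoglycan, had 586 UMIs in 17 WT members and 13 UMIs in 3 mutant members, and 584 and 11 of these were in cluster 5 (log2 -5.26, -6.18 to -4.47). Kcnq5, a potassium channel subunit, had 659 UMIs in 31 WT and 25 in 11 mutant members, mostly in cluster 1, where it was at 1426 CPM in WT against 47.0 CPM in the mutant. In the Pi16- or Dpp4-carrying cells Kcnq5 went the other way, 17.9 CPM in WT against 52.4 CPM in the mutant, but that mutant level rests largely on a single cell. Without the top cell the mutant log2 ratio of members over these cells moved from -1.90 to 0.25. The adhesion receptor Adgrb3 had 142 UMIs in 13 WT members and 0 in the mutant, which is at least 5.33 lower on the log2 scale with 3 UMIs in place of 0. The glutamate receptor subunits Grin3a and Grik1 were lower by log2 -2.97 and -2.91, the methyltransferase Inmt by -4.15, Fibin by -2.90, the glycoprotein hormone Stc2 by -2.72 and the kinesin Kif26b by -2.64. Inmt was also lower in the Pi16- or Dpp4-carrying cells, at 188 and 49.8 CPM.

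Inflammatory genes were divided. Of 23 tested, 5 were higher, 2 lower, and the median was 0.65. Cxcl5 stood at 386 CPM in WT (16 cells) and 36.4 CPM in the mutant (15 cells), and the log2 ratio was -3.41 (-3.80 to -3.04), and 811 of its 812 WT UMIs lay in cluster 3. In the Pi16- or Dpp4-carrying cells it stood at 43.0 CPM in WT against 115 CPM in the mutant. That mutant level rests in part on a single cell. Without the top cell the mutant log2 ratio of members over these cells moved from -1.66 to -0.83. Ccl11 was lower at 45.7 and 16.8 CPM.

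The 5 higher genes were Cxcl13, Lcn2, Il33, Cxcl9 and Ccl19, and cluster 2 carried much of each. Lipocalin 2 (Lcn2), an iron-sequestering acute-phase protein, stood at 42.8 CPM in 21 WT members and 244 CPM in 29 mutant members (log2 2.51, 2.18 to 2.85), and 243 of the 435 mutant UMIs were in 1 cell. Il33 stood at 30.9 and 91.3 CPM (log2 1.56, 1.138 to 1.999), but at 0.91 without the top cell. Cxcl9, an interferon-induced chemokine, stood at 198 and 558 CPM (log2 1.49, 1.33 to 1.66). Cxcl13 had 13 UMIs in 3 WT cells and 153 UMIs in 4 mutant cells, 110 of them in 1 cell. Cxcl9, Cxcl13 and Ccl19 kept a ratio above 1 without the top cell, at 1.03, 1.96 and 1.03. None of the 5 was higher past 2-fold without mixed members. The ratios were then 0.12 for Lcn2 and -0.64 for Cxcl9, and -0.26, -1.58 and -1.33 for Il33, Cxcl13 and Ccl19, which had fallen below the count minimum. The median of the inflammatory list was -0.02 over 17 genes.

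Complement and Wnt genes were higher more often than lower. C3, the central complement component, was in 60 WT and 52 mutant members, at 580 CPM in WT against 1415 CPM in the mutant (log2 1.29, 1.19 to 1.39). It was higher in 4 of the 6 clusters, and with Cd55 it made 2 higher of 9 tested complement genes, median 0.61, although Cd55 had a ratio of 0.29 without the top cell. Without mixed members C3 was within 2-fold, at 0.20, and the complement median was 0.13. Of 8 Wnt genes, 4 were higher and 1 lower. The Wnt agonist Rspo2 stood at 139 and 433 CPM (log2 1.63, 1.44 to 1.83), the Wnt antagonists Sfrp2 at 163 and 382 CPM and Dkk2 at 29.0 and 102 CPM, and Sfrp4 at 99.9 and 205 CPM. Without the top cell Rspo2 kept a ratio of 1.05, while Sfrp2, Dkk2 and Sfrp4 had 0.87, 0.95 and 0.46. Without mixed members Rspo2 and Sfrp2 were past 2-fold at 1.25 and 1.54, and Sfrp4 and Dkk2 were at -0.01 and -0.19. Wif1, also an antagonist, was lower at 103 and 40.9 CPM. Of the 773 mutant Rspo2 UMIs 474 were in cluster 3, where it stood at 1825 CPM against 324 CPM in WT, and 259 were in 1 cell. Of the 7 lymphangiogenic genes tested only the hepatocyte growth factor Hgf was called (24.3 and 67.8 CPM, log2 0.29 without the top cell and -0.73 without mixed members), and Vegfc, the main lymphatic growth factor, had 65 UMIs in WT and 62 in the mutant.

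Lining genes were higher in the mutant as a group, and the group followed cluster 6. Of 9 tested, 6 were higher and none lower, with a median of 1.20. Without mixed members Has1, Hbegf, Clic5 and Cd55 were past 2-fold, at 1.47, 1.23, 1.09 and 1.05. Htra4 and Tmem196, then below the count minimum, turned to -1.58 and -0.91. Prg4 was at 0.34, Tspan15, below the minimum, at 0.22, and Col22a1 moved from 0.88 to -1.49. That filter counts mural genes, of which Rgs5 was raised in cluster 6. Prg4 stood at 3333 CPM in 59 WT members and 6334 CPM in 52 mutant members (log2 0.93, 0.88 to 0.97), and Has1 at 204 and 587 CPM (log2 1.53, 1.36 to 1.69). Cluster 6 gave 5.16% of WT and 18.8% of mutant member UMIs. Without the top cell of each gene the median was 0.29, with the clusters weighted alike in both libraries it was -0.18, and within cluster 6 Prg4 was at 36611 CPM in 4 WT cells and 27222 CPM in 9 mutant cells. F13a1, the leading gene of that cluster, was at 37.1 and 379 CPM (log2 3.35, 3.01 to 3.71) and 1.58 with clusters weighted alike.

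**Figure D3:**
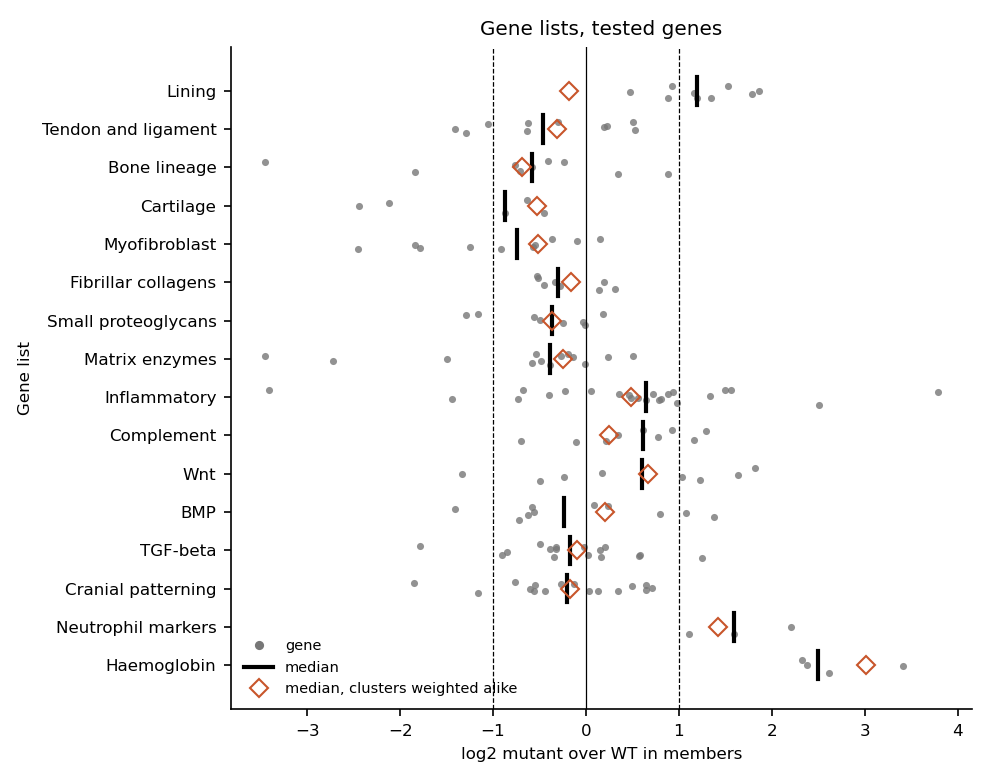
The log2 ratio of mutant over WT for each tested gene of 16 gene lists (x axis, points), with the median of each list as a bar and the median with clusters weighted alike as an open diamond. Solid and dashed lines mark 0 and 2-fold. The lining median moves from 1.20 to -0.18 when clusters are weighted alike, while the myofibroblast median stays below 0.

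Transcripts of other cell types differed between the members of the libraries. Haemoglobin genes summed to 2719 CPM in WT members and 15630 CPM in mutant members, with Hbb-bs the most abundant, all 4 listed genes higher. A single cell held 5160 of the WT UMIs and another 13242 of the mutant UMIs, and without these cells the sums were 264 and 8216 CPM. Neutrophil genes summed to 144 and 481 CPM, with S100a9 the most abundant and none of 7 at 0, and 3 of 3 tested were higher. Macrophage genes summed to 159 and 284 CPM, led by Lyz2 in WT and Cd74 in the mutant. Endothelial genes were near 0, at 16.7 and 10.6 CPM with Emcn and Tie1 at 0 in WT, and lymphocyte genes stood at 3.81 and 2.80 CPM with Cd3e and Trbc2 at 0 in both. Schwann cell genes summed to 128 and 25.8 CPM, with 148 UMIs in 1 WT cell and Sox10 at 0 in both. Adipocyte genes summed to 29.0 and 75.03 CPM and muscle genes to 1.43 and 3.36 CPM. Epithelial genes stood at 2.38 and 49.8 CPM, 49.3 of it Bpifb1 in the mutant, with Krt5 and Krt14 at 0 in both, and in the other kept cells they summed to 4.95 CPM in WT against 2370 CPM in the mutant. Their part in the results above was not tested.

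Antigen-presentation genes were among the 12 named higher genes and are set beside cells that should lack them. Cd74, the invariant chain of MHC class II, was at 29.5 CPM among WT and 160 CPM among mutant members (log2 2.44, 2.03 to 2.86), and H2-Ab1, H2-Aa and H2-Eb1 had ratios of 2.46, 2.38 and 2.28. In the Pi16- or Dpp4-carrying cells all 4 genes were within 2-fold, with Cd74 at 271 and 358 CPM (log2 0.40, 0.24 to 0.56), H2-Ab1 at -0.13, H2-Aa at 0.16 and H2-Eb1 at 0.09. Without mixed members, a filter that itself counts Cd74, 25 WT and 19 mutant UMIs of Cd74 were left. All 4 genes were then below the count minimum and within 2-fold. The ratios were 0.14 for Cd74, 0.68 for H2-Ab1, 0.42 for H2-Aa and 0.81 for H2-Eb1. Neutrophils of the same libraries were at 51.2 and 115 CPM of Cd74. Before any thinning, 21.1% of WT and 42.4% of mutant members had a UMI of Cd74. After thinning to 2000 UMIs, 14.3% of mutant members and 13.3% of mutant neutrophils had a UMI of Cd74, but the UMIs were not spread evenly. In the 26 mutant cells of cluster 2 Cd74 stood at 531 CPM, against 16.5 CPM in the WT cells of that cluster, and 5 of them held 208 of the 285 mutant UMIs. Cd74 was the only 1 of 7 macrophage genes raised in cluster 2. A part played by other cells' transcripts was not tested. S100a8 had a UMI in 17.6% of thinned mutant members and 43.9% of thinned mutant B cells. Igha, an antibody heavy chain, had 298 of its 322 mutant UMIs in 1 cell.

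Ifi202b, an interferon-inducible gene, had 0 UMIs in WT members and 188 UMIs in 46 mutant members, at 105 CPM (90.8 to 121), which is at least 6.20 higher on the log2 scale with 3 UMIs in place of 0. After thinning, 19.8% of mutant members, 1.10% of mutant neutrophils and 6.54% of mutant B cells carried it. The gene had no UMI in WT Pi16- or Dpp4-carrying cells and 183 CPM in those of the mutant, and over the other kept cells it was at 0.0216 CPM in WT against 92.9 CPM in the mutant. The difference was therefore not particular to members, and its cause, a response to interferon included, was not tested. A part played by other cells' transcripts was not tested. Pla1a, a phospholipase, and Dbp, a clock-output transcription factor, were also named, at log2 2.25 and 2.32.

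The other comparison asked how members differ from cells of the same library that carried Pi16 or Dpp4 and otherwise met the rule. Those genes, and every gene that goes with them, are tied to the rule, so the values describe the sets. Of 5527 genes with at least 100 UMIs over both sets of cells in each library, 137 were at least 2-fold higher in members in both libraries (2.48%) and 147 at least 2-fold lower in both (2.66%). In 9 genes the libraries went opposite ways past 2-fold.

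Genes higher in members included leading genes of clusters 1 and 5. Dok6, an adaptor of receptor tyrosine kinases, was at 573 CPM in WT members and 3.31 CPM in Pi16- or Dpp4-carrying cells, and at 246 and 1.96 CPM in the mutant. Fibrillin 2 (Fbn2), a microfibril protein, was at 118 and 0.992 CPM in WT and 80.6 and 0.655 CPM in the mutant. Plppr1 had no UMI in the Pi16- or Dpp4-carrying cells of either library and stood at 66.6 and 199 CPM in members. Tnn, Mmp13, Col25a1, the cadherin Fat3, Rnf144b, Kcnip4 and the phosphatase Ppm1e completed the 10 named genes, the smaller of the library ratios running from log2 3.85 for Ppm1e upward. Of 8 bone-lineage genes 6 were higher in both, with Runx2 at log2 3.15 in WT and 2.28 in the mutant. Tenascin-C (Tnc), a matrix protein of injured and loaded tissue, was at 779 and 29.8 CPM for WT, and at 430 and 61.6 CPM for the mutant.

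Genes lower in members included those of the Pi16 adventitial list. Mfap5, a microfibril protein, was at 203 CPM in WT members and 1568 CPM in Pi16- or Dpp4-carrying cells (log2 -2.95, -3.10 to -2.81), and at 177 and 1023 CPM in the mutant (log2 -2.53, -2.71 to -2.36). Cmah was at 0.952 and 76.4 CPM in WT and 2.80 and 122 CPM in the mutant. Efhd1, the angiopoietin receptor Tek, Phex, Tmeff2, Ston2, the lymphatic growth factor Vegfd, the angiotensin-converting enzyme Ace and Lims2 were the other named genes. Vegfd had ratios of -2.71 in WT and -2.51 in the mutant. Of 12 genes of the Pi16 adventitial list 9 were lower in both, among them Cd34, Clec3b and Pcolce2, and none was higher. Of 9 complement genes 4 were lower in both, with C3 at log2 -2.22 in WT and -1.38 in the mutant.

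**Figure D4:**
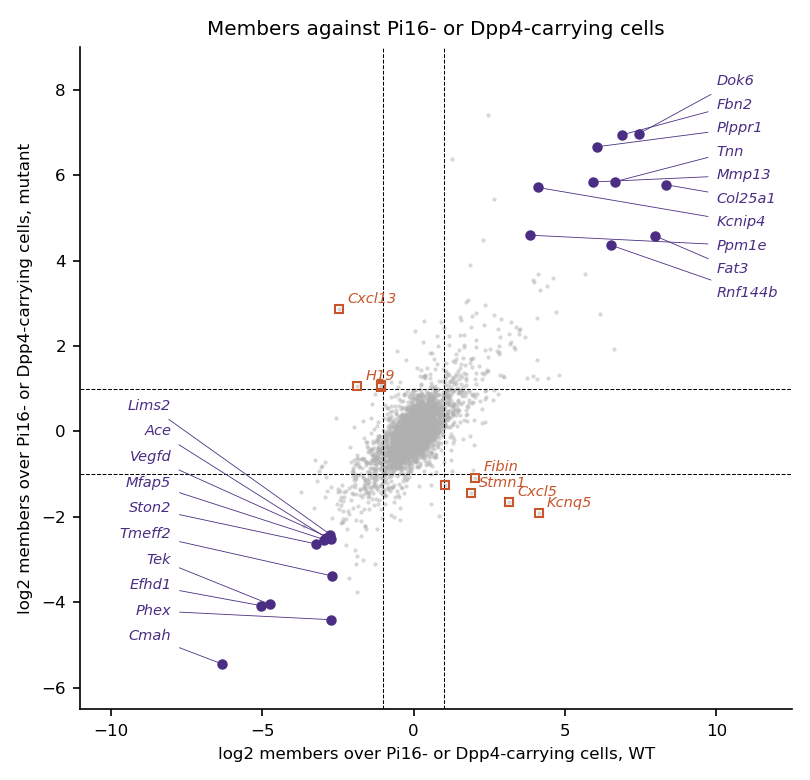
The log2 ratio of members over Pi16- or Dpp4-carrying cells for each tested gene, WT on the x axis and the mutant on the y axis, without the genes of the rule. Purple points are the 20 named genes, open squares the 9 genes that went opposite ways past 2-fold, and dashed lines mark 2-fold. Dok6 lies at 7.44 in WT and 6.97 in the mutant, and Cxcl5 at 3.17 and -1.66.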

How the data were processed

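The deposited files held unnormalized UMI counts for 2 scRNA-seq libraries of dissociated TMJ, 1 per genotype. Per the submitters' processing notes, Cell Ranger 7.0.1 and mm10 were used. The labels name 3′ chemistry of another version, and other digestion enzymes, than the study's methods. Whether intronic reads were counted is not given in the sources used here. No sample columns were left out. The members and gene lists were chosen with earlier results of these data known.

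Counts were summed over the members of each library and scaled to CPM. A ratio has an exact conditional binomial interval, a level a Poisson interval, a share a Clopper-Pearson interval and a difference of shares a Newcombe interval, each at 95%. A count of 0 was set to 3 UMIs per cell set for a bound. UMIs remove PCR copies, yet intervals cover counting error only. Named genes were the 12 highest and 12 lowest ratios between libraries with at least 10 cells in the higher library and at least 2-fold without the top cell, and the 10 highest and 10 lowest by the smaller of the libraries' ratios against Pi16- or Dpp4-carrying cells. Rule, mitochondrial, ribosomal, haemoglobin, Gm, Rik and sex-linked marker genes were left out.

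Clusters came from scanpy 1.11.5 (2000 variable genes, scaling within library, 20 principal components, 15 neighbours, Leiden resolution 0.5). A gene counted as raised in a cluster at 2-fold over the other members in at least 10% of its cells, with 5 CPM added to both. No doublet caller was run. The terms on Ptprc and Pecam1 remove some doublets, and results without the 31 WT and 35 mutant members that held 5 or more UMIs of another cell type, haemoglobin and neutrophil genes aside, were computed as an alternative. Neutrophils (138 in WT, 188 in the mutant) and B cells (101 and 107) served as background. The calculations were tested on simulated data. Some items met by these rules are not reported here.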

Additional observations from a re-analysis of the deposited data

Results flagged for a closer look

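The genes below went opposite ways in the libraries or in the cell sets, by at least 2-fold each way. Each library is 1 sample, so none of these differences was tested. In the ratio of members over Pi16- or Dpp4-carrying cells, on the log2 scale, the chemokine Cxcl13 was at -2.46 in WT and 2.86 in the mutant, and Cxcl5 at 3.17 in WT and -1.66 in the mutant. Kcnq5 was at 4.13 in WT and -1.90 in the mutant, and Fibin at 2.03 and -1.08. Cyp26b1, which degrades retinoic acid, was at 1.05 in WT and -1.25 in the mutant, and Stmn1, a microtubule regulator, at 1.88 and -1.45. The imprinted transcript H19 was at -1.85 in WT and 1.06 in the mutant, Lrig1, which restrains growth factor receptors, at -1.07 and 1.08, and the amino acid transporter Slc16a10 at -1.08 and 1.03. Without the top cell of each gene, all 9 were inside 2-fold in at least 1 library. In the mutant these were Kcnq5 at 0.25, H19 at 0.11, Cxcl5 at -0.83, Cyp26b1 at -0.60, Fibin at -0.59 and Stmn1 at -0.48. In WT it was Cxcl13 at -0.63, and in both libraries they were Lrig1 at -0.97 and 0.84 and Slc16a10 at -0.76 and 0.28.

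The ratio of mutant over WT was opposite in members and in Pi16- or Dpp4-carrying cells for 3 named genes. Kcnq5 was at -4.49 in members and 1.55 in Pi16- or Dpp4-carrying cells, Cxcl5 at -3.41 and 1.42, and Stc2 at -2.72 and 1.72. The Kcnq5 and Cxcl5 values in Pi16- or Dpp4-carrying cells each rest in part on a single mutant cell. Without the top cell the mutant ratio of members over these cells moved from -1.90 to 0.25 for Kcnq5. For Cxcl5 it moved from -1.66 to -0.83. The Stc2 value in Pi16- or Dpp4-carrying cells rests on 3 WT and 5 mutant UMIs, and its interval runs from -0.64 to 4.41.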

How the results depend on the processing

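With 1 library per group no replicate could be left out. No paired analysis was possible because the groups share fewer than 2 replicate numbers. The WT share of members was above the mutant share under all 8 alternatives. With 200 genes as the minimum and a mitochondrial limit of 20% the mutant share was 1.28%, and with 1000 genes and 5% the shares were 3.96% in WT and 2.18% in the mutant. A matrix minimum of 10 UMIs gave 1.96% in the mutant, a Pdgfra minimum of 2 gave 2.48% and 1.23%, no Pdgfra minimum gave 5.49% and 2.24% with a difference of -3.25 points, and up to 1 UMI of Pi16 and Dpp4 gave 3.88% in WT. Thinning to 4000 UMIs, which left out cells with fewer, gave 2.92% in the mutant and a difference of -0.87 points. Between the libraries, 232 genes were higher and 259 lower of 8612 at a minimum of 50 UMIs (2.69% and 3.01%), and 61 and 60 of 2625 at 300 UMIs (2.32% and 2.29%). Without the top cell of each gene 93 of 6252 were higher, and without members holding transcripts of another cell type 85 of 4856 were higher. Against Pi16- or Dpp4-carrying cells, 235 of 7898 genes were higher in members at 50 UMIs, and after thinning to 4000 UMIs 32 were higher and 60 lower of 1190. The median of the lining list turned to -0.18 when clusters were weighted alike, an alternative chosen after seeing the data, as were leaving out cluster 6 and totals without haemoglobin. Leaving out the top cell, which the naming rule used, and the low-count minimums, which do not move a ratio, 174 of 175 values of the 24 named genes were past 2-fold, each in its original direction. The exception was Lcn2, at 0.12 without members holding transcripts of another cell type, where 11 named genes, among them Ifi202b, Cd74, H2-Aa and Igha, fell below the count minimum and have no value. Of the 175 values, 24 came from scaling by the median ratio, a shift of 0.02, and 24 from totals without haemoglobin. Each of these 2 settings shifts every ratio alike and by little, so those values could not have left the named genes within 2-fold. Of 62 values for the comparison with Pi16- or Dpp4-carrying cells, 62 stayed past 2-fold. They include the minimum of 50 UMIs, which does not move a ratio, and scaling by the median ratio, which moves all ratios of a library alike. Of the 20 named genes, only Mfap5, Tmeff2 and Tnn had a value under all 4 alternatives. The cause of these shifts was not tested.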

Other observations

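Genes of the circadian clock and genes induced by glucocorticoids were looked up after values had been seen, so their counts support nothing. Of 16 clock genes 12 were tested in members, 3 were higher in the mutant, 2 lower and 7 within 2-fold, among the last Per1, Cry2 and Clock at log2 -0.22, 0.29 and -0.32. Of 5 glucocorticoid-induced genes 4 were lower and Klf9 was within 2-fold at -0.70. In members, the clock-output factor Dbp was at 22.4 CPM in WT against 111 CPM in the mutant, and the clock repressor Nr1d1 at 50.4 against 120 CPM. The activators Arntl, at 76.1 against 31.9 CPM, and Npas2, at 142 against 48.2 CPM, were lower. Of glucocorticoid-induced genes, Tsc22d3 was at 399 CPM in WT against 65.0 CPM in the mutant, Fkbp5 at 187 against 70.0 CPM and Zbtb16 at 304 against 144 CPM. In the Pi16- or Dpp4-carrying cells the log2 ratio was 2.85 for Dbp, -0.41 for Arntl, -1.35 for Npas2, -1.64 for Tsc22d3 and -1.10 for Fkbp5, so Arntl was within 2-fold there. Over the other kept cells it was 2.10 for Dbp, -2.29 for Npas2 and -1.52 for Tsc22d3. The hour at which each joint was taken is not given in the sources used here, and its part was not tested.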
